A study of Drosophila melanogaster with 6 samples.

Results

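The aminoacyl-tRNA synthetase genes were taken by their current FlyBase symbol, an amino acid code followed by RS, with the ending -m for the mitochondrial enzymes. The rule gave 33 genes, 18 cytosolic and 15 mitochondrial, of which 31 (17 cytosolic and 14 mitochondrial) were found by their identifier among the 15796 rows of the count table. The cytosolic LeuRS and the mitochondrial PheRS-m were not matched to a row and are not analysed here. All 31 had enough counts to be tested, among 10705 tested genes. RNA was sequenced from the fat body of late 3rd instar Drosophila melanogaster larvae, all given as strain w1118. The genotype was R4-Gal4/+ for the 3 control libraries, a single copy of a driver active in the fat body. For the 3 AKH overexpression libraries it was UAS-AKH/+; R4-Gal4/+, which adds a single copy of the hormone transgene. The driver places the gene of adipokinetic hormone, a glucagon-like peptide normally made in the corpora cardiaca, under fat body expression. Driver and strain background are thus shared by both groups, and UAS-AKH separates them. The labels do not tell whether each library had its own larvae, so p-values cover the spread among these 6 libraries, and part of it may be technical.

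Aminoacyl-tRNA synthetases join each amino acid to its own tRNA, the step that sets the genetic code and feeds the ribosome. Animal cells run this step in the cytosol and again inside mitochondria, where the organelle's own tRNAs are charged by enzymes that are made from nuclear genes and imported. The enzymes fall into 2 unrelated catalytic folds, class I and class II, and in animals several cytosolic enzymes are held together with the scaffold proteins AIMP1, AIMP2 and AIMP3 in a multisynthetase complex. The larval fat body is a secretory organ that makes the storage proteins of the haemolymph, and its protein synthesis follows the supply of amino acids.

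Libraries held 29803513 to 33150911 counts. The 11 fat body markers measured, among them the storage protein genes Lsp1alpha, Lsp1beta, Lsp1gamma and Lsp2, took 34.2% to 48.3% of the scaled counts in every library. Of the 10 of them tested, the 7 storage protein, Fbp and apolpp genes that carry this sum were not called by edgeR, and 3 fell with AKH overexpression, the hormone receptor gene AkhR (log2 fold change -1.84), the lipid droplet gene Lsd-1 (-1.27) and the transferrin gene Tsf1 (-1.20), of which Tsf1 kept its call in 2 of the 6 fits that left out a library. Of 10 haemocyte markers edgeR called 1, NimC1, which fell (-2.48) and was called in 4 of those 6 fits. The 10 had 5 positive and 5 negative log2 fold changes, with a median of 0.03. Over all tested genes edgeR called 3.77%. Yp1, the fat body marker that was not tested, was at 0.283 CPM in control libraries and 0.0954 CPM in AKH libraries on average (CPM scales counts to a common library size with TMM factors). Akh stood at 1.82 to 2.45 CPM in control libraries and 1635 to 2088 CPM in AKH libraries. The summed male germline markers, 18 genes, differed within both groups, at 13.7 to 69.0 CPM in control libraries and 12.7 to 70.6 CPM in AKH libraries. Summed salivary gland markers, 10 genes, were higher, at 26273 to 30356 CPM in control libraries and 21857 to 33661 CPM in AKH libraries. The part of other tissues in the synthetase levels was not tested. Of 18 midgut markers gammaTry was at 0 in every library. Fewer cells of a type and less RNA per cell cannot be told apart in such bulk samples.

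Levels were compared between genes as RPKM, which divides reads by gene length and by library total. Among the cytosolic enzymes AspRS (FBgn0002069), which charges tRNA with aspartate, was the most abundant, at 99.9, 94.3 and 95.3 RPKM in control replicates 1 to 3. It was at 101, 98.7 and 97.1 RPKM in AKH replicates 1 to 3. The control libraries of AspRS lay above all those of the next gene in the order, SerRS, and the ratio of the means was 1.79. SerRS (FBgn0031497), the seryl enzyme, had 61.9, 52.3 and 47.7 RPKM in controls and 48.7, 50.2 and 48.8 RPKM with AKH overexpression. AsnRS (FBgn0086443), the asparaginyl enzyme, had 55.8, 47.7 and 44.5 RPKM in controls and 50.2, 51.2 and 44.1 RPKM with AKH overexpression. The control libraries of SerRS and AsnRS overlapped, as did those of AsnRS and ThrRS, the threonyl enzyme, at 49.3 ± 4.96 RPKM (SD, n = 3). A part of the AspRS value is uncertain. In the reference annotation, of a later build than the authors', an antisense RNA gene of no row in the count table covers 63.9% of the exon bases of AspRS, and no source used here states whether reads were counted by strand.

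TyrRS and LysRS, for tyrosine and lysine, followed at 40.4 ± 2.98 and 39.7 ± 6.87 RPKM and did not differ beyond their spread. GlyRS, AlaRS and HisRS, for glycine, alanine and histidine, were at 32.0 ± 3.59, 30.2 ± 3.11 and 25.5 ± 1.96 RPKM. TrpRS, for tryptophan, GluProRS, a fused enzyme that charges both glutamate and proline tRNAs, ArgRS, for arginine, and GlnRS, for glutamine, lay close together between 20.8 and 24.9 RPKM on average. IleRS, CysRS and ValRS, for isoleucine, cysteine and valine, were at 17.2 ± 1.88, 16.5 ± 1.17 and 14.1 ± 2.11 RPKM. MetRS, for methionine, was the lowest cytosolic gene at 9.14 ± 1.42 RPKM. Among the tested genes ranked by control RPKM, AspRS stood at percentile 94.1 and MetRS at percentile 63.7.

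The mitochondrial enzymes were less abundant, with a median control level of 3.07 RPKM against 25.5 RPKM for the cytosolic genes. AspRS-m led them at 9.97 ± 0.953 RPKM, followed by TyrRS-m at 7.28 ± 0.188 RPKM. TrpRS-m, AlaRS-m and SerRS-m were at 4.85 ± 1.04, 4.72 ± 0.596 and 4.72 ± 0.636 RPKM. CysRS-m, LeuRS-m and AsnRS-m lay between 3.04 and 3.504 RPKM on average. ProRS-m, MetRS-m and ArgRS-m lay between 2.46 and 2.63 RPKM on average. The 3 lowest genes were IleRS-m, GluRS-m and ValRS-m. IleRS-m (FBgn0036569) had 2.24, 1.94 and 1.84 RPKM in controls and 1.90, 1.88 and 1.67 RPKM with AKH overexpression. GluRS-m (FBgn0036629), the mitochondrial glutamyl enzyme, had 1.63, 1.88 and 1.59 RPKM in controls and 1.60, 1.98 and 2.35 RPKM with AKH overexpression. ValRS-m (FBgn0035942) had 1.24, 1.43 and 0.932 RPKM in controls and 1.38, 1.93 and 1.22 RPKM with AKH overexpression, and its groups overlapped, as did those of the other lowest genes. The 2 sets met at AspRS-m and MetRS, whose control libraries overlapped, and 16 of 17 cytosolic genes had a higher mean control level than every mitochondrial gene. In the whole order of 31 genes the control libraries of 9 of the 30 neighbouring pairs did not overlap, and those of the other 21 did. No gene was near the limit of detection, since the lowest count of any synthetase gene in any library was 83.

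**Figure D1:**
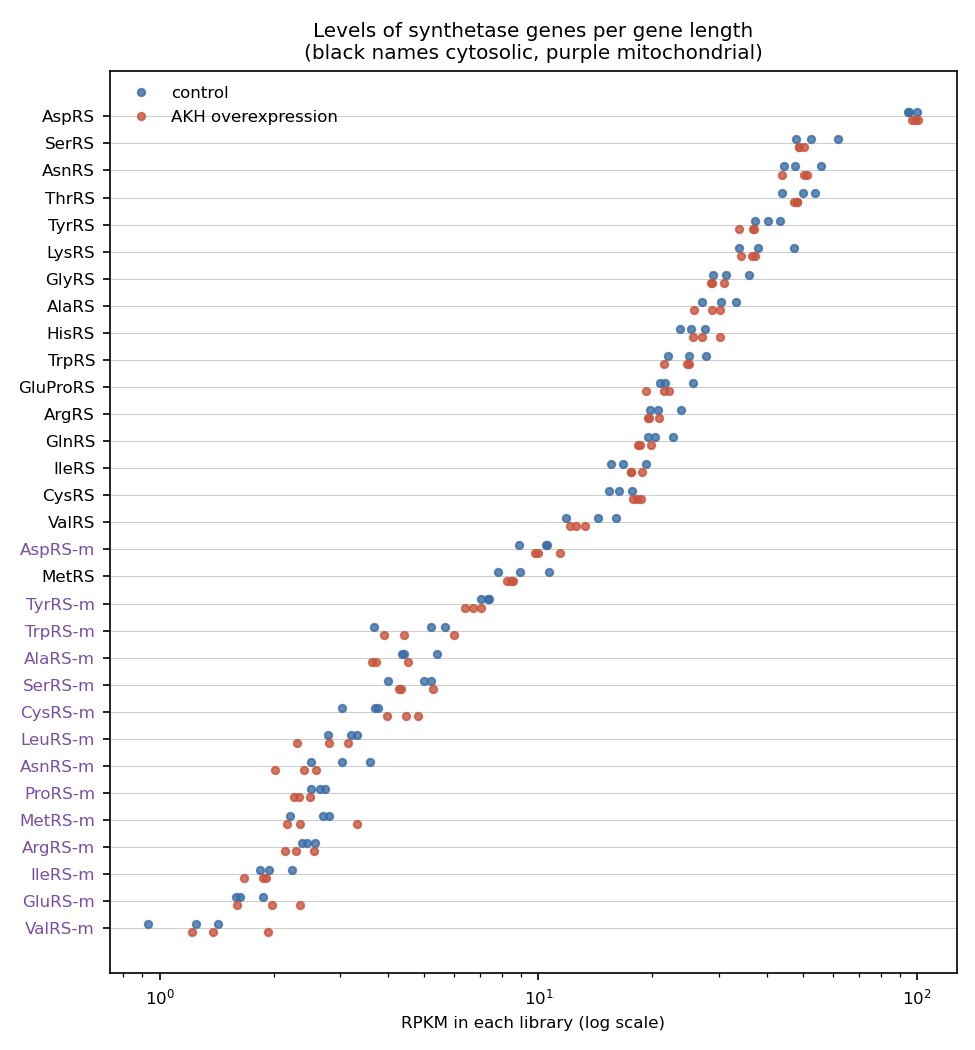
RPKM of each synthetase gene in each of the 6 libraries on a log axis, ordered by mean control level, with control libraries in blue and AKH overexpression libraries in red. AspRS stands alone at the top near 96.5 RPKM in controls, the cytosolic genes lie above the mitochondrial genes except around AspRS-m and MetRS, and the colours overlap on this scale in most genes.

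The levels also differed by catalytic class, a grouping that was made with the values in view and is given as a description. The 8 cytosolic class II genes (AspRS, SerRS, AsnRS, ThrRS, LysRS, GlyRS, AlaRS and HisRS) had a median of 44.5 RPKM in controls, and the 8 class I genes (TyrRS, TrpRS, ArgRS, GlnRS, IleRS, CysRS, ValRS and MetRS) a median of 19.0 RPKM. GluProRS carries both folds and was left out. Also left out were alpha-PheRS and beta-PheRS, class II subunit genes whose symbols are outside the rule. They were at 29.3 ± 2.97 and 27.2 ± 4.13 RPKM in controls, so including them would lower the class II median. Of the class I genes, 1 had a mean above the lowest class II gene, namely TyrRS, which stood above LysRS, GlyRS, AlaRS and HisRS. The control libraries of the class I gene TrpRS overlapped those of HisRS. The ratio of the class medians was 2.41, 2.32 and 2.22 in control replicates 1 to 3 and 2.32, 2.21 and 2.13 in AKH replicates 1 to 3. For the genes listed it was above 2 in each library, and it was not computed with alpha-PheRS and beta-PheRS included. The median gene lengths implied by the deposited tables were 2243 bases for class II and 2462 bases for class I, and in CPM, with no division by length, the medians were 99.9 and 49.5. On that scale TyrRS and IleRS stood above HisRS. Among mitochondrial genes the 5 of class II had a median of 4.72 RPKM and the 9 of class I a median of 2.57 RPKM, with ranges that overlapped from 2.63 to 7.28 RPKM.

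**Figure D2:**
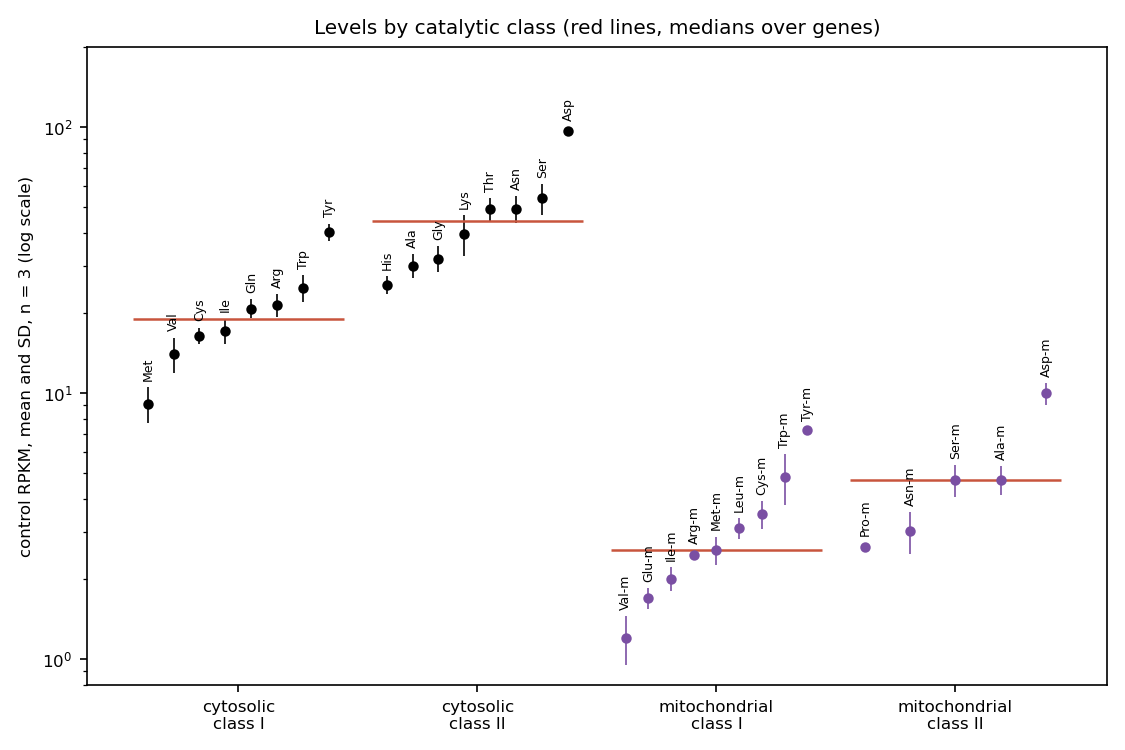
Mean control RPKM of each gene (SD over 3 libraries as bars, log axis) by compartment and catalytic class, with red lines for the medians over genes. The cytosolic medians, without GluProRS, alpha-PheRS and beta-PheRS, are 19.0 RPKM for class I and 44.5 RPKM for class II. TyrRS is the class I gene that lies within the class II range.

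In animals the multisynthetase complex holds the aspartyl, arginyl, glutaminyl, glutamyl-prolyl, isoleucyl, lysyl and methionyl enzymes, together with the leucyl enzyme. The 7 measured genes of this group included both the most and the least abundant cytosolic member, AspRS and MetRS, with a median of 21.4 RPKM beside 31.1 RPKM for the 10 other cytosolic genes. Partners in the complex thus differed over a range from 9.14 to 96.5 RPKM in controls.

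For 13 amino acids both the cytosolic and the mitochondrial gene were measured, and the ratio of their RPKM within a library does not depend on how libraries are scaled. The cytosolic gene was the more abundant in each of them, with mean control ratios from 3.55 ± 0.250 for MetRS over MetRS-m to 16.4 ± 1.21 for AsnRS over AsnRS-m. The ratio was 9.73 ± 0.905 for aspartate, the amino acid whose genes led both sets. GluProRS stood 13.5 ± 2.12 times above GluRS-m and 8.64 ± 0.914 times above ProRS-m. Under AKH overexpression the ratio for asparagine was 24.9, 21.3 and 17.01 in replicates 1 to 3, against 15.6, 15.8 and 17.8 in controls, and the groups overlapped. The ratio of IleRS to IleRS-m was 8.60, 8.58 and 8.48 in controls and 9.24, 9.99 and 10.5 with AKH overexpression. It was the only ratio of the 13 whose groups did not overlap. Among single genes in CPM, the groups of 24.3% of all tested genes did not overlap, so 1 such ratio in 13 does not set isoleucine apart. No p is given for these ratios, since 3 against 3 libraries allow no exact permutation p below 0.1.

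**Figure D3:**
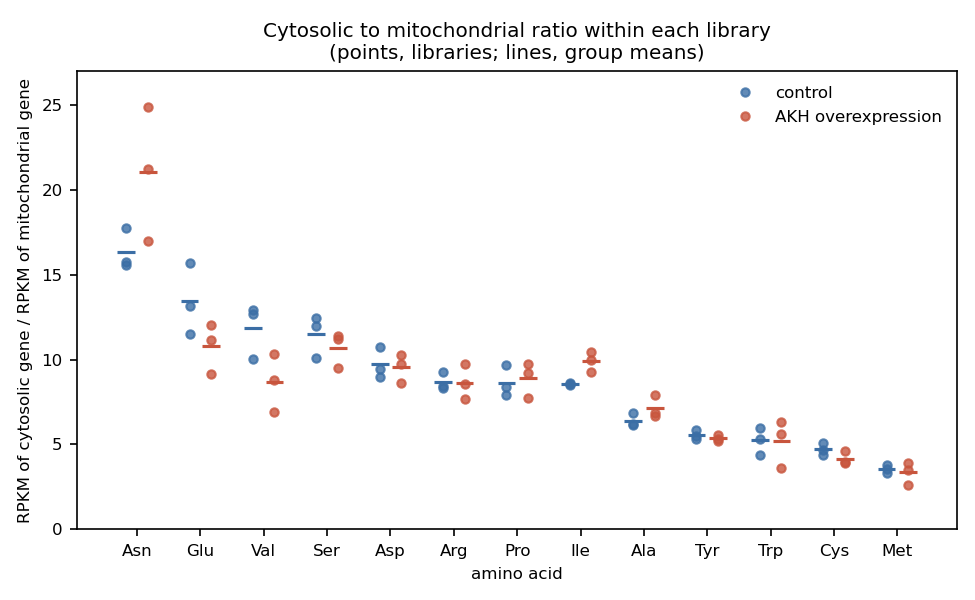
Ratio of the RPKM of the cytosolic gene to that of the mitochondrial gene for 13 amino acids, with a point for each library, lines for group means, controls in blue and AKH overexpression in red. Ratios run from about 3.55 for methionine to 16.4 for asparagine in controls, and only the isoleucine groups do not overlap.

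The comparison of AKH overexpression with control asks which fat body transcripts differ when the hormone gene is expressed there. Of the 31 synthetase genes 0 changed in edgeR's quasi-likelihood test (adjusted p under 0.05 after Benjamini-Hochberg adjustment over all tested genes), where 3.77% of all tested genes did, 1.87% higher and 1.91% lower with AKH overexpression. A share of that size would be about 1 gene in 31, so the count of 0 alone does not set the synthetases apart from other genes. DESeq2 and limma-voom also called 0, and 1 gene (CysRS-m) had an unadjusted p under 0.05 in edgeR, where 18% of all tested genes had one. All 31 log2 fold changes lay between -0.38 and 0.33, and all 31 of the 95% intervals lay within a 2-fold change in either direction. Among all tested genes 66.9% of the intervals did, and 86.2% among the 7163 tested genes in the CPM range of the synthetases. The intervals of the cytosolic genes reached from -0.42 to 0.36, so that a change of 1.5-fold lies outside each of them.

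The direction was negative in 23 of 31 genes, 13 of 17 cytosolic and 10 of 14 mitochondrial. The median log2 fold change was -0.11 over all synthetases, -0.12 over the cytosolic and -0.07 over the mitochondrial genes, beside 0.02 over all tested genes. The medians of both sets were negative under each scaling tried and without any 1 library, but their size rested on single libraries. The median over all synthetases was -0.05 without control replicate 1 and -0.19 without control replicate 2. That of the cytosolic genes was -0.05 and -0.21 in the same fits. That of the mitochondrial genes was -0.03 without AKH replicate 1, -0.12 without AKH replicate 2 and -0.11 without control replicate 2. Summed over the 17 cytosolic genes, the control libraries had 1366 ± 118 CPM and the AKH libraries 1302 ± 53.6 CPM, means that lay closer together than the SD of the controls. The 14 mitochondrial genes summed to 132 ± 4.48 and 129 ± 4.57 CPM. The summed midgut markers were at 1589 to 3817 CPM in control libraries and 411 to 1043 CPM in AKH libraries. Every AKH library lay below every control in this sum. Of the 12 tested, 11 had a negative log2 fold change, edgeR called 0, and the groups of 7 overlapped, while 5 had AKH below. In AKH replicates 1 and 3 the sum was mostly LManII, at 515 and 399 CPM, with a log2 fold change of 0.12 and overlapping groups. Of 15 muscle markers tested 13 had a negative log2 fold change (median -0.62) and 11 had an unadjusted p under 0.05 in edgeR. The groups of 11 did not overlap with AKH below and of 1 with AKH above. Over all 10705 tested genes 1442 had such groups with AKH below and 1159 with AKH above, and 18% had an unadjusted p under 0.05. edgeR called Mlc1 and Mlc2, DESeq2 called 6 and limma-voom 1. Of all genes that each tool tested, these tools called 3.77%, 6.99% and 3.48%. DESeq2 tested 14112 genes, with no expression filter before the fit. Mlc1 kept its call in 0 and Mlc2 in 3 of the 6 fits that left out a library. The summed muscle markers, 351 to 380 CPM in control and 321 to 366 CPM in AKH libraries, are mostly Tm1, at 220.1 and 225 CPM with a log2 fold change of 0.03. The part of either marker list in the differences of the synthetases was not tested. The synthetases together took 0.136% to 0.164% of the counts in controls and 0.140% to 0.148% with AKH overexpression, and these ranges overlapped.

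**Figure D4:**
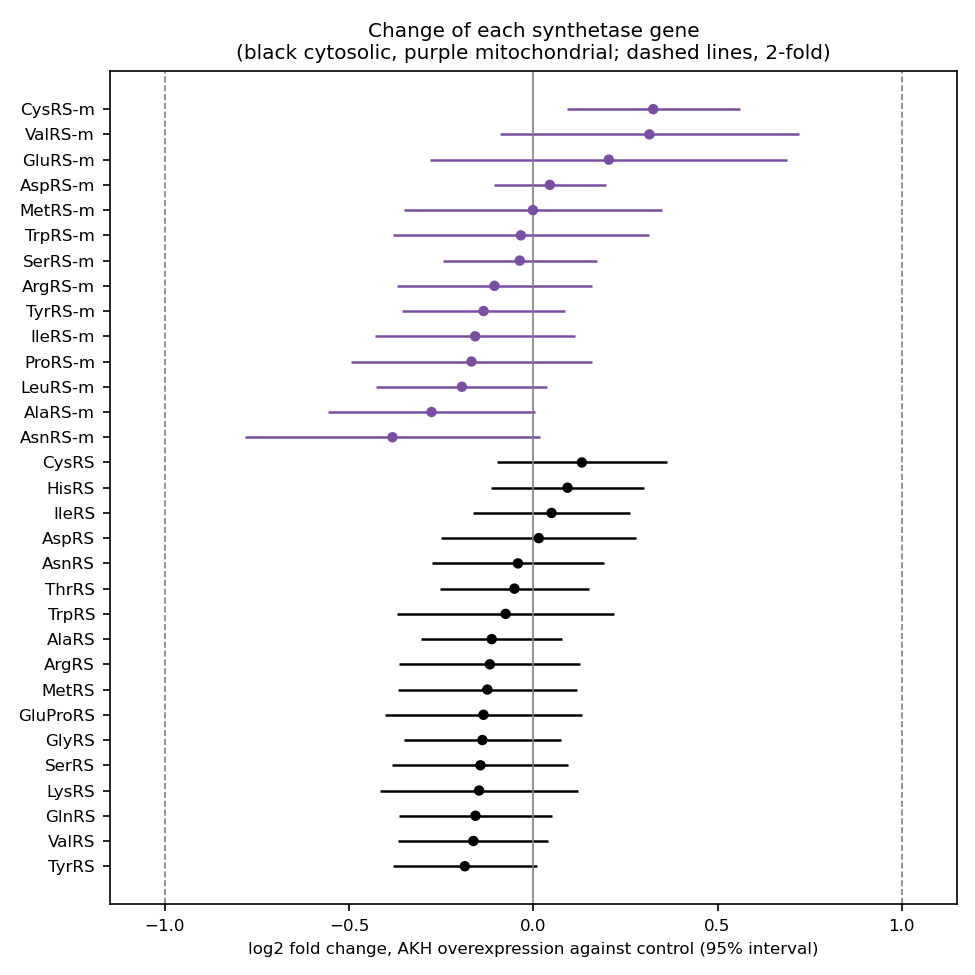
Log2 fold change of each synthetase gene under AKH overexpression with its 95% interval from edgeR, cytosolic genes in black and mitochondrial genes in purple, with dashed lines at a 2-fold change. All 31 intervals lie inside the dashed lines, and that of CysRS-m alone, from 0.09 to 0.56, does not include 0.

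Among cytosolic genes the most negative change was that of TyrRS (FBgn0027080). Its CPM was 74.0, 66.2 and 75.8 in control replicates 1 to 3 and 66.4, 60.3 and 63.2 in AKH replicates 1 to 3. The groups of TyrRS overlapped only in control replicate 2 and AKH replicate 1, and its log2 fold change was -0.19 (SE 0.08, adjusted p = 0.302). The most positive was that of CysRS (FBgn0027091), which had 41.9, 36.9 and 43.2 CPM in control libraries and 46.1, 40.4 and 47.2 CPM in AKH libraries. Its log2 fold change was 0.13 (SE 0.10, adjusted p = 0.546) and its groups overlapped. In CPM none of the 17 cytosolic genes had groups that did not overlap, where 24.3% of all tested genes did. In RPKM the groups of TyrRS did not overlap (37.4 to 43.4 in control, 33.9 to 37.1 in AKH libraries). Nor did those of CysRS (15.4 to 17.7 RPKM in control, 17.8 to 18.6 RPKM in AKH libraries). HisRS, IleRS and AspRS also had log2 fold changes above 0, at 0.09, 0.05 and 0.01. The other 12 cytosolic genes lay between -0.16 and -0.04, from ValRS, GlnRS, LysRS, SerRS, GlyRS, GluProRS, MetRS, ArgRS, AlaRS and TrpRS to ThrRS and AsnRS.

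Mitochondrial genes spread more widely, and in CPM the groups did not overlap in 5 of 14. CysRS-m (FBgn0033900), the mitochondrial cysteinyl enzyme, had 6.55, 6.16 and 6.24 CPM in control libraries and 8.74, 7.46 and 7.55 CPM in AKH libraries. All AKH libraries of CysRS-m thus lay above all controls, with a log2 fold change of 0.33 (SE 0.10, 95% interval 0.09 to 0.56), and the adjusted p was 0.150. In the annotation 14.3% of its exon bases are shared with CG13016 on the opposite strand, so part of its reads may be that gene's. AsnRS-m (FBgn0034177), the mitochondrial asparaginyl enzyme, had 5.06, 4.09 and 4.20 CPM in control libraries and 2.98, 3.26 and 3.999 CPM in AKH libraries. In CPM all AKH libraries of AsnRS-m lay below all controls, with a log2 fold change of -0.38 (SE 0.17, adjusted p = 0.298). In RPKM its groups overlapped, at 2.50 in control replicate 3 and 2.59 in AKH replicate 3. TyrRS-m, LeuRS-m and ProRS-m likewise had no overlap in CPM, with AKH below control and log2 fold changes of -0.14, -0.19 and -0.17. In RPKM the groups of LeuRS-m overlapped, at 2.79 in control replicate 3 and 3.13 in AKH replicate 2. The share of 5 in 14 in CPM is 35.7%, beside 24.3% of all tested genes. The share over all tested genes was not counted in RPKM.

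AlaRS-m had a log2 fold change of -0.28 (SE 0.12, adjusted p = 0.283) with overlapping groups. ValRS-m and GluRS-m had 0.32 (SE 0.17) and 0.21 (SE 0.20), at 3.76 and 2.91 CPM in controls. IleRS-m and ArgRS-m had -0.16 and -0.11, while SerRS-m, TrpRS-m, MetRS-m and AspRS-m lay between -0.04 and 0.04. The cysteinyl genes thus had the most positive change of both the cytosolic and the mitochondrial set, and neither was called.

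Libraries of a group differed little in these genes. The coefficient of variation of CPM between control libraries had a median of 9.05% over the synthetases, beside 12.8% over all tested genes and 9.31% over tested genes in the same CPM range. Between AKH libraries it had a median of 5.93%, beside 10.7% and 8.07%. The lowest values of a single gene were 2.13% for LeuRS-m in controls and 2.17% for TyrRS-m with AKH overexpression. The highest was 22.8% for GluRS-m with AKH overexpression, a gene of 90 to 121 counts there. In the annotation 5.6% of the exon bases of GluRS-m are shared with Serinc on the opposite strand, a gene of 1486 to 2095 counts. Part of the reads of GluRS-m may thus be those of Serinc.

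The cytosolic genes varied together from library to library, and which library was lowest depended on the scale. In TMM-scaled CPM the cytosolic sum was 1449, 1231 and 1418 in control replicates 1 to 3. All 17 cytosolic genes were lowest in control replicate 2, as were 10 of the 14 mitochondrial genes. In RPKM, which uses the library total alone, the cytosolic sum was 622, 553 and 515. Control replicate 3 was then lowest in 16 of 17 cytosolic genes and in all 14 mitochondrial genes, so the shift was not particular to the cytosolic set. The same was not counted over all tested genes. TMM factors were 1.04, 1.08 and 0.874 for these libraries. In AKH replicates 1 to 3 the cytosolic sum was 1320, 1241 and 1344 CPM and 545, 554 and 528 RPKM. The ratio of the cytosolic to the mitochondrial sum is free of that choice. It was 10.9, 9.83 and 10.8 in controls and 10.8, 9.53 and 10.7 with AKH overexpression, so that replicate 2 was lowest in both groups. The summed male germline markers were highest in the same replicate of each group, at 69.0 and 70.6 CPM. In the other libraries they were at 13.7 and 15.7 CPM (controls) and at 57.3 and 12.7 CPM (AKH), and their part in the ratio was not tested. Midgut markers were also highest in replicate 2 of each group, at 3817 and 1042 CPM. Summed fat body markers (342129 and 372558 CPM) and salivary gland markers (26273 and 21857 CPM) were lowest in replicate 2 of each group. So were the muscle and cuticle sums. The part of any of these lists in the ratio was not tested either.

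**Figure D5:**
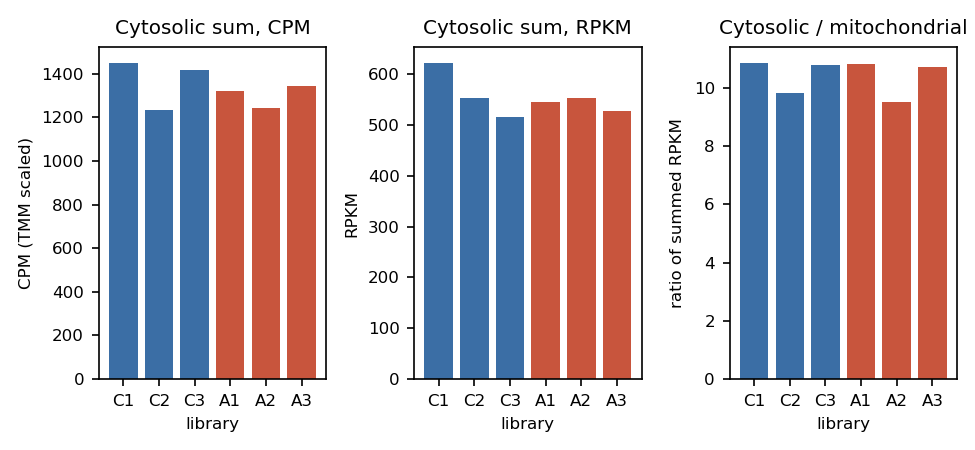
Summed level of the 17 cytosolic synthetase genes in each library (C1 to C3 control, A1 to A3 AKH overexpression) in TMM-scaled CPM (left) and in RPKM (middle), and the ratio of cytosolic to mitochondrial summed RPKM (right). The lowest control is C2 in CPM and C3 in RPKM, and the ratio is lowest in C2 and A2, at 9.83 and 9.53.

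Cytosolic phenylalanyl-tRNA synthetase is built of an alpha and a beta subunit, whose genes have symbols outside the rule. alpha-PheRS had 49.9 ± 3.25 CPM in control and 44.3 ± 0.769 CPM in AKH libraries (log2 fold change -0.17, SE 0.07, edgeR adjusted p = 0.272). beta-PheRS was at 53.5 ± 7.13 and 45.0 ± 0.434 CPM (-0.25, SE 0.11, adjusted p = 0.286). In both genes all AKH libraries lay below all controls. Of the scaffold genes AIMP1 had a log2 fold change of -0.26 (SE 0.08, adjusted p = 0.157) with groups that did not overlap, at 31.2 ± 1.57 and 26.0 ± 1.81 CPM. AIMP2 and AIMP3 had -0.04 and -0.03, from control levels of 40.4 ± 2.24 and 14.3 ± 0.4998 CPM. None of these 5 genes was called by edgeR, DESeq2 or limma-voom, and alpha-PheRS and AIMP1 had an unadjusted p under 0.05 in edgeR. Mitochondria make their glutaminyl-tRNA indirectly, from the product of GluRS-m, with an amidotransferase of subunits GatA, GatB and GatC. GatA had 6.48 CPM in controls and 5.33 with AKH overexpression (-0.28, SE 0.12, edgeR adjusted p = 0.274, groups that did not overlap), GatB 3.87 and 4.09 CPM (0.08, SE 0.18), and the row of GatC held 0 counts in every library.

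Other genes of translation were counted in the same way. For comparison, edgeR called 3.77% of its tested genes and DESeq2 6.99% of the 14112 that it tested. In edgeR 18% of all tested genes had an unadjusted p under 0.05. With so few genes in a list, a count of 0 or 1 does not set it apart from all tested genes. Of 32 initiation factor genes 0 were called by edgeR and limma-voom, 7 had an unadjusted p under 0.05 in edgeR, and DESeq2 called 3, namely eIF3g1, eIF3k and eIF3l. Their median log2 fold change was -0.13, close to that of the cytosolic synthetases, and 28 of 32 were negative, or 26 with library totals as the only scaling. Of 9 cytosolic elongation and release factor genes 0 were called by edgeR and limma-voom, 2 had an unadjusted p under 0.05 in edgeR, DESeq2 called eEF1beta alone, and their median was -0.15. eEF1beta, a subunit of the exchange factor that reloads the carrier of charged tRNA, was at 607 ± 61.6 CPM in control and 413 ± 32.8 CPM in AKH libraries (-0.56, SE 0.11, edgeR adjusted p = 0.0588). Of 11 mitochondrial translation and transcription factor genes edgeR called 0, 1 had an unadjusted p under 0.05, DESeq2 and limma-voom called 0, and the median was -0.11. Of 12 genes of RNA polymerase III and its factors, which transcribe the tRNAs, 0 were called by edgeR, DESeq2 or limma-voom and 0 had an unadjusted p under 0.05, with a median of 0.00 on the log2 scale.

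Of 20 genes of tRNA processing and modification 1 fell, a share near the 3.77% called of all tested genes. It was scu, which encodes a mitochondrial dehydrogenase whose human counterpart is also a subunit of mitochondrial RNase P. It went from 648 to 316 CPM (log2 fold change -1.03, SE 0.15, edgeR adjusted p = 0.0199). Its call was lost without control replicate 1 or without any 1 AKH replicate, with adjusted p up to 0.0999.

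The amino acid response is the known route by which uncharged tRNA is sensed, through the kinase Gcn2 and the transcription factor crc, the fly ATF4, whose targets in animals include synthetase genes. Of 14 genes of this list edgeR called 0, 2 had an unadjusted p under 0.05, DESeq2 and limma-voom called 0, and the median log2 fold change was 0.07. Gcn2 was at 18.5 ± 0.306 and 18.8 ± 0.418 CPM, and crc at 598 ± 54.9 and 626 ± 51.6 CPM, differences within the spread between libraries. Thor, the 4E-BP inhibitor of cap-dependent translation and a target of crc and foxo in flies, was at 346 ± 63.0 CPM in control and 522 ± 149 CPM in AKH libraries (0.59, SE 0.25, edgeR adjusted p = 0.287). Of 21 genes of TOR signalling and amino acid sensing 1 fell, again near the 3.77% of all tested genes, namely mnd (minidiscs), a leucine transporter. It went from 21.7 ± 1.62 to 13.3 ± 0.451 CPM (log2 fold change -0.71, SE 0.08, edgeR adjusted p = 0.0091), and its call was lost without control replicate 1 or AKH replicate 1, with adjusted p up to 0.0574. Myc, a regulator of growth and ribosome production, was at 50.3 ± 12.4 and 58.7 ± 3.31 CPM (0.22, SE 0.18, edgeR adjusted p = 0.599).

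Enzymes that make or convert amino acids included several that changed. Of 13 such genes edgeR called 5, of which 2 rose (Got1 and Got2) and 3 fell (Gdh, Gs2 and Srr), beside 3.77% of all tested genes, with log2 fold changes from -5.66 to 2.01. The aspartate aminotransferases Got1 and Got2 had log2 fold changes of 2.01 (SE 0.13) and 1.28 (SE 0.13). The synthetases for their product, AspRS and AspRS-m, had 0.01 (SE 0.11) and 0.04 (SE 0.06). Gdh, glutamate dehydrogenase, had 622 ± 72.1 CPM in control and 190.2 ± 4.48 CPM in AKH libraries, while GluProRS and GluRS-m had log2 fold changes of -0.14 (SE 0.11) and 0.21 (SE 0.20). Srr, serine racemase, had 226 ± 80.7 and 4.48 ± 1.196 CPM, while SerRS and SerRS-m had log2 fold changes of -0.14 (SE 0.10) and -0.04 (SE 0.09). Gs2, a glutamine synthetase gene, went from 31.2 ± 3.59 to 19.2 ± 2.39 CPM (-0.70, SE 0.13, edgeR adjusted p = 0.0378), and 5 of the 6 fits that left out a library lost its call (adjusted p up to 0.113), the exception being the fit that left out control replicate 3. GlnRS had -0.16 (SE 0.09). Whether the changes of the enzymes differ from those of the synthetases was not tested.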

How the data were processed

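The authors deposited raw read counts and RPKM per gene for 3 control and 3 AKH overexpression libraries of larval fat body. Per the labels' protocols, Trizol was used for RNA extraction and an Illumina TruSeq RNA kit for the libraries. Per the submitters' processing notes, the genome build was BDGP5 and the tools were TopHat2 2.0.9, Bowtie2 2.0.6, DESeq 1.10.1 and HTSeq 0.5.4p3. Their roles, the annotation release and the strand setting were not given in the sources used here. The reference annotation is of a later build, so no coordinates are given, and it served only to find genes with shared exon bases, which 16 of the 31 synthetase genes have.

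A quasi-likelihood test in edgeR 4.0.16 (R 4.3.3) was run on the deposited counts (default expression filter, TMM scaling, all 6 libraries, no covariate), with Benjamini-Hochberg adjustment over 10705 genes. Intervals are 95% and come from the fit. The deposited RPKM served for levels between genes, with no pseudocount. Intervals and limits cover the spread between these libraries. Alternatives were DESeq2 1.42.0, limma-voom (limma 3.58.1), other scalings and filters, a block for the replicate number, each library left out, and limma on log2(RPKM + 1) or log2(RPKM + 0.1). Only the edgeR fit was also run on simulated counts, drawn with the same dispersion (spread between libraries) for every gene, which the deposited counts need not have. The other fits were not run on simulated counts.

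All synthetase genes are named, with values per library for the 3 most and the 3 least abundant and for the most positive and most negative change of the cytosolic and the mitochondrial set. From the other lists the called genes are named. Outside that rule, and chosen after their values were seen, are Gcn2, crc, Thor, Myc, eEF1beta, eIF3g1, eIF3k, eIF3l, Yp1, Tm1, LManII and gammaTry. So are the storage protein genes, apolpp, GatA, GatB and GatC. The members and lists were chosen with earlier results of these data known. Of 294 names on the other lists, 256 were found in the count table.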

Additional observations from a re-analysis of the deposited data

How the results depend on the processing

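The number of synthetase genes called was 0 under all alternatives run, including an adjusted p under 0.10, and 16 cytosolic genes lay above every mitochondrial gene in each setting tried for levels. Of 486 gene values under alternatives 0 changed side of the threshold, 469 kept their direction and 17 changed sign, in genes with a main log2 fold change between -0.08 and 0.05. MetRS-m (-0.0011) had 0.019 with library totals only, 0.0048 with limma on log2(RPKM + 1) and 0.0027 on log2(RPKM + 0.1). Without 1 library the ranges were -0.15 to 0.076 for MetRS-m, -0.078 to 0.10 for AspRS, -0.14 to 0.0089 for AsnRS, -0.043 to 0.093 for IleRS, -0.15 to 0.033 for TrpRS, -0.17 to 0.050 for TrpRS-m and -0.086 to 0.0064 for SerRS-m. The number of genes called over all tested was 404, and 986 with DESeq2, 638 and 607 with limma on log2(RPKM + 1) and log2(RPKM + 0.1), and 144 to 479 without 1 library (144, 182, 189 and 261 without AKH replicate 1, AKH replicate 3, control replicate 1 and AKH replicate 2). The cause was not tested. With the replicate number as a block 430 genes and 0 synthetase genes were called. The numbers are not shown to pair libraries, since deviations of same-numbered libraries correlated at -0.37, 0.60 and 0.50. The lowest count of a synthetase gene in a library was 83, of GluRS-m, which had the largest SE of the 31 genes (0.20), and AspRS-m had the smallest (0.063).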

Other observations

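The subunits of initiation factor 3, the complex that recruits the small ribosomal subunit, are given here as values, as a group that was chosen after the values were seen. Of its 13 listed genes 12 were lower on average with AKH overexpression (median log2 fold change -0.19). In 9 of them all AKH libraries lay below all controls, as in 1442 of all 10705 tested genes. Among the 9 cytosolic elongation and release factor genes 5 had all AKH libraries below all controls, with a median of -0.15. The 19 other initiation factor genes had a median of -0.06, with 4 such genes. edgeR called 0 of the 13, with 6 at an unadjusted p under 0.05, and the smallest adjusted p of the 13 was that of eIF3k (0.0610, log2 fold change -0.41). Whether the subunits differ from other translation genes was not tested.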
